A study of Drosophila melanogaster with 12 samples.

Results

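Antisense RNAs are transcripts made from the strand opposite to an annotated gene, and their exons can pair base for base with the transcript of that gene. In Drosophila most are noncoding and few have been studied one by one, so they carry CR numbers in place of names. Known antisense transcripts can act on the gene they overlap, through the act of transcription, through RNA pairing or through chromatin, while for many no role has been described. The antisense RNAs described here are the genes of the deposited count table whose symbol begins with asRNA. The rule used the symbol alone and no measured value. It found 241 antisense RNAs among 8802 genes.

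The counts come from cells sorted by fluorescence from the midgut of adult Drosophila melanogaster females, labelled as intestinal stem cells. The study compared forms of Shavenbaby (Svb), a transcription factor made from the ovo locus, to find the genes it controls in these cells. There were 4 groups of 3 libraries, described by the authors as biological replicates made on separate days. Every group carried the driver esg-Gal4 with UAS-GFP and tubGal80TS, so all cells, controls included, made Gal4 and GFP. esg is active in stem cells and in their undifferentiated daughters, so a sort on GFP alone would hold both. The count columns of every library are also labelled Small, and what that label selected was not examined. The other parent of the control flies was Canton-S. It was UAS-SvbRNAi for the libraries labelled svb RNAi (called RNAi-labelled from here on), UAS-SvbACT::GFP for SvbACT and UAS-Svb3Kmut::GFP for SvbREP. SvbACT and SvbREP are described by the authors as constitutive forms, and in the epidermis the processed form of Svb is known as an activator and the full-length form as a repressor. Virgin females were aged for 3 days and then kept at 29 °C for 6 days, which lifts the Gal80 block, so they were 9 days old at dissection. Guts of more than 20 females went into each library. The control parent was Canton-S and the other groups had a parent from a UAS line, so strain background and transgene cannot be told apart.

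Library totals ran from 2965852 to 6575392 counts, and the lowest totals were 2965852 in SvbREP replicate 1 and 3584798 in SvbREP replicate 2. A floor of 3 counts corresponded to between 0.483 and 1.02 counts per 1000000 (CPM). Counts of ovo went against the knockdown label. They were 4, 64 and 3 in control and 225, 206 and 209 in the RNAi-labelled libraries, a log2 fold change of 3.29 (SE 0.522, adjusted p = 0.000241 by edgeR). Gene counts do not separate transcripts of the ovo locus from those of a transgene that holds ovo sequence. In SvbACT and SvbREP, ovo stood at 2136.8 ± 114.4 and 2157.9 ± 65.2 CPM (SD, n = 3). Of 10 progenitor markers, 8 were in the table, with summed levels of 11029.7 to 12596.4 CPM in control, 8071.0 to 9666.3 in the RNAi-labelled libraries, 12166.5 to 15124.0 in SvbACT and 9340.5 to 11152.5 in SvbREP. Of the progenitor markers, zfh2, Egfr, Dl, Sox21a and klu had lower means in the RNAi-labelled libraries than in control. For zfh2 the means were 2436.2 against 4007.4 CPM. The others, esg, N and E(spl)mbeta-HLH, had higher means there, with esg at 2047.4 against 2027.9. In SvbREP they were split too, with esg at 1292.1 and Dl at 1178.8 against 958.0 in control. All 10 enterocyte markers were in the table. They summed to 408.9 to 746.6 CPM in control, 393.2 to 459.1 in the RNAi-labelled libraries, 462.3 to 568.0 in SvbACT and 492.6 to 666.2 in SvbREP. Myo31DF alone had a mean of 393.7 CPM in control and 535.4 in SvbREP. Of the others, only Vha100-4 was higher in SvbREP than in control (2.57 against 0.865). The rest were lower, such as Amy-p at 8.95 against 49.6. The 10 enteroendocrine markers summed to 203.0 to 592.2 CPM in control, 170.4 to 669.8 in the RNAi-labelled libraries, 281.8 to 487.1 in SvbACT and 243.0 to 1421.8 in SvbREP. The 8 visceral muscle markers stayed between 16.5 and 46.5 CPM in sum. In bulk samples, fewer cells of a type and less RNA per cell cannot be told apart.

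All 241 antisense RNAs were found in the annotation used (Ensembl release 115, assembly BDGP6.54), which lists 503. Chromosome 3R held 58 of them, 2R 48, 3L 47, 2L 45, X 38 and the small chromosome 4 held 5. Exon lengths ran from 223 to 7115 bases with a median of 1061, and 117 had a single exon. Every one overlapped a gene on the other strand in the annotation, and 227 overlapped a gene that was also in the table. These 227 formed 244 pairs with 237 partner genes, all of them protein-coding. asRNA:CR44690 and asRNA:CR45479 also overlap each other, by 39 bases, and were not taken as partners of each other. In 133 pairs the antisense RNA lay inside the span of the partner. In 58 pairs the genes overlapped head to head at their 5′ ends, in 33 tail to tail at their 3′ ends, and in 20 the partner lay inside the antisense RNA. Of the 241, 10 also overlapped a gene on their own strand.

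The sources used here do not say whether counting used the strand, and without it reads of an antisense RNA and of its partner cannot be told apart where their exons overlap. The median antisense RNA had 76.1% of its exon length covered by exons of the other strand. For 16 of them the cover was 100%, and these had mean counts between 3.83 and 159.1 per library, with a median of 11.3. The 57 with under 50% cover had a median of 8.92 mean counts, the 58 between 50% and 75% had 11.2, and the 110 between 75% and 100% had 19.6. Antisense RNAs without a base of their own were thus counted at levels inside the range of the others. The value of every antisense RNA below carries this limit, which is not repeated at each.

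**Figure D1:**
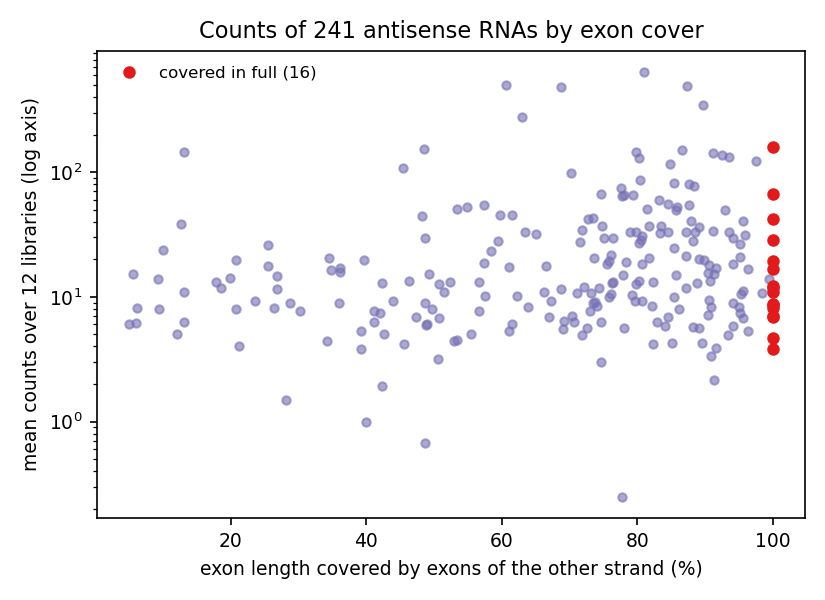
Each point is 1 of the 241 antisense RNAs, placed by the percentage of its exon length that exons of the other strand cover and by its mean counts over the 12 libraries on a log axis. The 16 red points are covered in full and lie between 3.83 and 159.1 mean counts, within the spread of the rest.

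As a class these RNAs were scarce. Mean counts per library ran from 0.25 to 635.4 with a median of 13.2, against a median of 96.0 over all genes of the table. Per length, the median antisense RNA had a level of 3.18 reads per kilobase of exon and 1000000 counts (RPKM), all genes had 10.8 and the partner genes 15.8. A count was present in all 12 libraries for 179 of the 241, 222 reached a mean of 1 CPM and 38 reached 10 CPM. The filter on low counts kept 203 antisense RNAs for testing (84.2%, against 90.8% of all genes, 7992 in number). The other 38 had mean counts of 0.25 to 6.83 and never more than 30 counts in a library, and they enter no test.

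The antisense RNAs of highest level are described first. Per length the highest was asRNA:CR31144 (FBgn0051144, chromosome 3R, 11222414 to 11223029, minus strand) at 185.8 RPKM. It lies inside RpL3, which encodes a protein of the large ribosomal subunit and stood at 1494.4 RPKM, and 87.3% of its exons are covered. Its CPM values were 98.9, 108.8 and 99.1 in control, 99.4, 61.1 and 84.0 in the RNAi-labelled libraries, 106.6, 82.9 and 89.7 in SvbACT, and 215.2, 134.7 and 66.2 in SvbREP. SvbREP replicate 1 was the highest and SvbREP replicate 3 the second lowest, so the SvbREP libraries lay on both sides of all 3 controls. asRNA:CR45874 (chromosome 3L, 9510017 to 9510889, plus strand, inside the small-subunit protein gene RpS9) followed at 115.9 RPKM, with 76.7 ± 3.72 CPM in control and 123.0 ± 58.8 in SvbREP (SD, n = 3). Neither was called in any comparison.

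asRNA:CR45926 (chromosome 2R, 23905334 to 23906700, plus strand) had the highest mean level per library, 132.5 CPM, and 101.3 RPKM. It lies inside Nap1, a gene for a nucleosome assembly protein. Its group means were 116.5 ± 10.9 CPM in control, 141.8 ± 19.2 in the RNAi-labelled libraries, 90.2 ± 5.81 in SvbACT and 181.7 ± 83.2 in SvbREP (SD, n = 3). asRNA:CR45129 inside Dscam1 and asRNA:CR44897 inside robo2 came next per length, at 87.9 and 48.9 RPKM. asRNA:CR43812 (chromosome 2R, 20264855 to 20265145, minus strand), a short RNA of 291 exonic bases head to head with CG8908, was sixth with 43.1 RPKM. Its group means lay between 12.2 and 13.3 CPM, closer together than the SD of any group, the smallest of which was 3.11 CPM.

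Over the 4 groups together, 39 of the 203 antisense RNAs tested differed (19.2%), where 28.8% of all genes tested did. Comparison by comparison, 25 were called against control in at least 1 of the 3 other groups, 4 in at least 2 and 2 in all 3. None was called higher in 1 comparison with control and lower in another. The 3 comparisons share the control libraries, so calls common to them are not independent of each other.

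In the RNAi-labelled libraries, 6 antisense RNAs were higher than control and 13 lower, and a fit of these 2 groups alone gave 10 higher and 9 lower among 158 tested. The 19 calls are 9.36% of those tested, against 20.4% of all genes, of which 6.74% were higher and 13.7% lower. The median log2 fold change was -0.08 over the antisense RNAs and 0.02 over all genes tested. The median was also -0.08 with the 2 antisense RNAs at 0 in a whole group set to their bound. Without RNAi-labelled replicate 2 the count of calls was 11, and without replicate 3 it was 12, beside 15.6% and 15.7% of all genes. Because ovo counts were higher in this group, the direction of these changes is that of the labelled libraries and not of a measured loss of svb.

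Several of the RNAs that fell lay inside genes that fell as well. asRNA:CR46071 (FBgn0267740, chromosome 2L, 8934796 to 8935720, minus strand) had 34, 44 and 55 counts in control, 0 in each of the 3 RNAi-labelled libraries, 7, 10 and 18 in SvbACT, and 17, 15 and 1 in SvbREP. The RNAi-labelled libraries were all below every other library, and the level was at least 13.4-fold lower than control, with the floor of 3 counts set for each library (adjusted p = 0.000642 by edgeR, called in 12 of 12 fits that each left out 1 library). It lies inside Tsp29Fa, which encodes a tetraspanin, a membrane protein with 4 membrane-spanning segments. 96.4% of its exons are covered, and Tsp29Fa fell from 82.4 ± 9.04 to 6.74 ± 2.31 CPM (SD, n = 3), a log2 fold change of -3.62 (SE 0.285, adjusted p = 1.89e-07 by edgeR). Tsp29Fa was called lower in SvbACT (-1.26, adjusted p = 0.00361) and SvbREP (-1.63, adjusted p = 0.0013) too, where asRNA:CR46071 stood at 2.27 ± 0.787 and 3.36 ± 2.88 CPM (SD, n = 3) against 7.69 ± 1.26 in control and was not called.

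asRNA:CR45133 (FBgn0266626, chromosome 2R, 10152717 to 10154345, plus strand) lies inside KCNQ, the gene of a voltage-gated potassium channel. It had 47, 53 and 56 counts in control, 18, 10 and 0 in the RNAi-labelled libraries, 41, 54 and 86 in SvbACT, and 8, 10 and 16 in SvbREP. Control and SvbACT libraries did not overlap with those of the other 2 groups in CPM. The log2 fold change was -2.28 in the RNAi-labelled libraries (SE 0.647, adjusted p = 0.0196 by edgeR), a call that was lost without replicate 2 of that group (-2.27, the highest adjusted p of the fits without 1 library being 0.0638). KCNQ fell in all 3 groups, by 2.98, 1.07 and 1.71 on the log2 scale (edgeR adjusted p = 4.69e-09, 0.000241 and 8.56e-06). In SvbACT, KCNQ was thus lower than control, while asRNA:CR45133 stood at 11.9 ± 2.85 CPM against 9.09 ± 0.371 in control (SD, n = 3).

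Dscam1, a cell-surface receptor of neurons and immune cells known for its large number of splice forms, holds a pair of the called antisense RNAs. asRNA:CR45129 (chromosome 2R, 7325896 to 7335195, plus strand) had 88.4, 117.9 and 117.3 CPM in control and 53.8, 48.6 and 56.2 in the RNAi-labelled libraries, with no overlap. Its log2 fold change was -1.03 (SE 0.286, adjusted p = 0.0173 by edgeR), and the call was lost without control replicate 3 (-0.98) or without RNAi-labelled replicate 2 (-0.99), with adjusted p up to 0.0607. asRNA:CR44071 (chromosome 2R, 7343345 to 7343695, plus strand) had 9, 17 and 9 counts in control and 1, 1 and 3 in the RNAi-labelled libraries. Its change of -2.61 (SE 0.728, adjusted p = 0.0176 by edgeR) was not called without control replicate 2 (-2.24) or without replicate 1 (-2.46) or 2 (-2.36) of the RNAi-labelled group. Dscam1 fell by 1.17 on the log2 scale in the same libraries (adjusted p = 4.55e-06 by edgeR). As both RNAs share this partner, they are not separate cases of a change beside it.

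asRNA:CR44897 (FBgn0266202, chromosome 2L, 1381211 to 1382796, plus strand) lies inside robo2, a receptor for the guidance cue Slit. It had 50.0, 92.8 and 66.4 CPM in control and 30.2, 23.1 and 29.6 in the RNAi-labelled libraries, all below the lowest control. The log2 fold change was -1.34 (SE 0.353, adjusted p = 0.0129 by edgeR), lost without RNAi-labelled replicate 2 (-1.24, adjusted p = 0.055), and robo2 fell by 0.91 (adjusted p = 5.27e-06). asRNA:CR44107 (chromosome 3R, 19149122 to 19149557, plus strand) had 33, 39 and 43 counts in control and 8, 7 and 14 in the RNAi-labelled libraries. Its log2 fold change was -1.85 (SE 0.437, adjusted p = 0.00628 by edgeR), called in all 12 fits without 1 library, beside -1.10 for its host CG5835 (adjusted p = 0.00053). asRNA:CR43474 (chromosome 3R, 22629575 to 22630671, plus strand) had 10, 11 and 10 counts in control, 0 in each RNAi-labelled library, and 1, 16 and 16 in SvbREP. It was at least 3.15-fold lower in the RNAi-labelled libraries (adjusted p = 0.0168 by edgeR), a call lost without replicate 2 or 3 of that group (adjusted p up to 0.0517), and its host loco, a regulator of G protein signalling, fell by 1.42 (adjusted p = 6.96e-05).

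Other falls stood beside partners that met head to head. asRNA:CR45528 (chromosome X, 5755492 to 5756710, minus strand) had 16, 41 and 20 counts in control and 2, 2 and 8 in the RNAi-labelled libraries, a log2 fold change of -2.55 (adjusted p = 0.0111 by edgeR). Without control replicate 2 (-2.03) or RNAi-labelled replicate 2 (-2.23) it was not called. Its partner CG15771 fell from 161.6 ± 3.37 to 33.7 ± 5.19 CPM (SD, n = 3), by 2.26 on the log2 scale (adjusted p = 1.1e-08 by edgeR). asRNA:CR46145 (chromosome 3R, 9393890 to 9394737, plus strand) overlaps the 5′ untranslated region of FER, a tyrosine kinase gene, and had 20, 11 and 49 counts in control and 4, 4 and 5 in the RNAi-labelled libraries. Its change of -2.43 (adjusted p = 0.0306 by edgeR) was lost without control replicate 3 (-1.77) and without replicate 1, 2 or 3 of the RNAi-labelled group (-2.48, -2.35 and -2.49), and FER fell by 0.84 (adjusted p = 2.43e-05).

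The next 3 RNAs fell in these libraries while no partner of theirs was called there. asRNA:CR43467 (FBgn0263444, chromosome 2R, 10139262 to 10142074, minus strand) had 33, 27 and 36 counts in control, 0, 1 and 4 in the RNAi-labelled libraries, 8, 13 and 2 in SvbACT, and 4, 4 and 10 in SvbREP. All 9 other libraries were below the 3 controls, and the change in the RNAi-labelled libraries was -4.07 (SE 0.86, adjusted p = 0.00285 by edgeR, called in 12 of 12 fits without 1 library). Its span encloses the odorant receptor gene Or46a, at -1.58 (adjusted p = 0.068) there and -2.52 (adjusted p = 0.0366) in SvbREP. CG12917, which it meets tail to tail, was at -1.1 in the RNAi-labelled libraries and not called. asRNA:CR45815 (chromosome 3L, 1648628 to 1649699, minus strand), head to head with CG13920, had 17, 9 and 21 counts in control and 0, 4 and 1 in the RNAi-labelled libraries (-3.03, adjusted p = 0.0337 by edgeR). asRNA:CR43257 (chromosome 2R, 24793807 to 24795772, plus strand), tail to tail with the replication origin gene Orc4, had 7, 5 and 23 counts in control and 2, 1 and 0 in the RNAi-labelled libraries, a control level 10.7 times as high (95% counting interval 3.38 to 54.5, adjusted p = 0.0484 by edgeR). In the same libraries CG13920 stood at -1.89 and Orc4 at -0.17, neither of them called. The calls of asRNA:CR45815 and asRNA:CR43257 held in 7 and 3 of the 12 fits without 1 library, with adjusted p up to 0.125 and 0.247.

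Of the 6 that rose in the RNAi-labelled libraries, asRNA:CR43609 (FBgn0263584, chromosome 2L, 21952 to 24237, plus strand) was the most abundant. It lies inside Ir21a, an ionotropic receptor gene known from the sensing of cooling. Its levels were 14.9, 12.9 and 19.5 CPM in control, 41.9, 48.3 and 55.7 in the RNAi-labelled libraries, 24.3, 28.2 and 25.2 in SvbACT, and 11.2, 11.8 and 15.4 in SvbREP. The RNAi-labelled libraries stood above all others, and SvbACT stood between them and the overlapping control and SvbREP libraries. The log2 fold change was 1.62 in the RNAi-labelled libraries (SE 0.204, adjusted p = 2.62e-05 by edgeR, called in 12 of 12 fits without 1 library) and 0.71 in SvbACT (SE 0.205, adjusted p = 0.0407 by edgeR). The SvbACT call held in 5 of the 12 fits, and was lost without control replicate 1 or 2, replicate 2 or 3 of the RNAi-labelled group, or any 1 SvbACT library, with changes of 0.59 to 0.76. Ir21a itself had only 5 to 28 counts in a library and 2.26 ± 0.302 CPM in control (SD, n = 3), and was not called, at 0.91 (adjusted p = 0.387) in the RNAi-labelled libraries. The other 4 called higher in that comparison alone had log2 fold changes from 0.99 to 1.44, with no overlap with control, and their calls held in 5 to 9 of the 12 fits without 1 library.

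**Figure D2:**
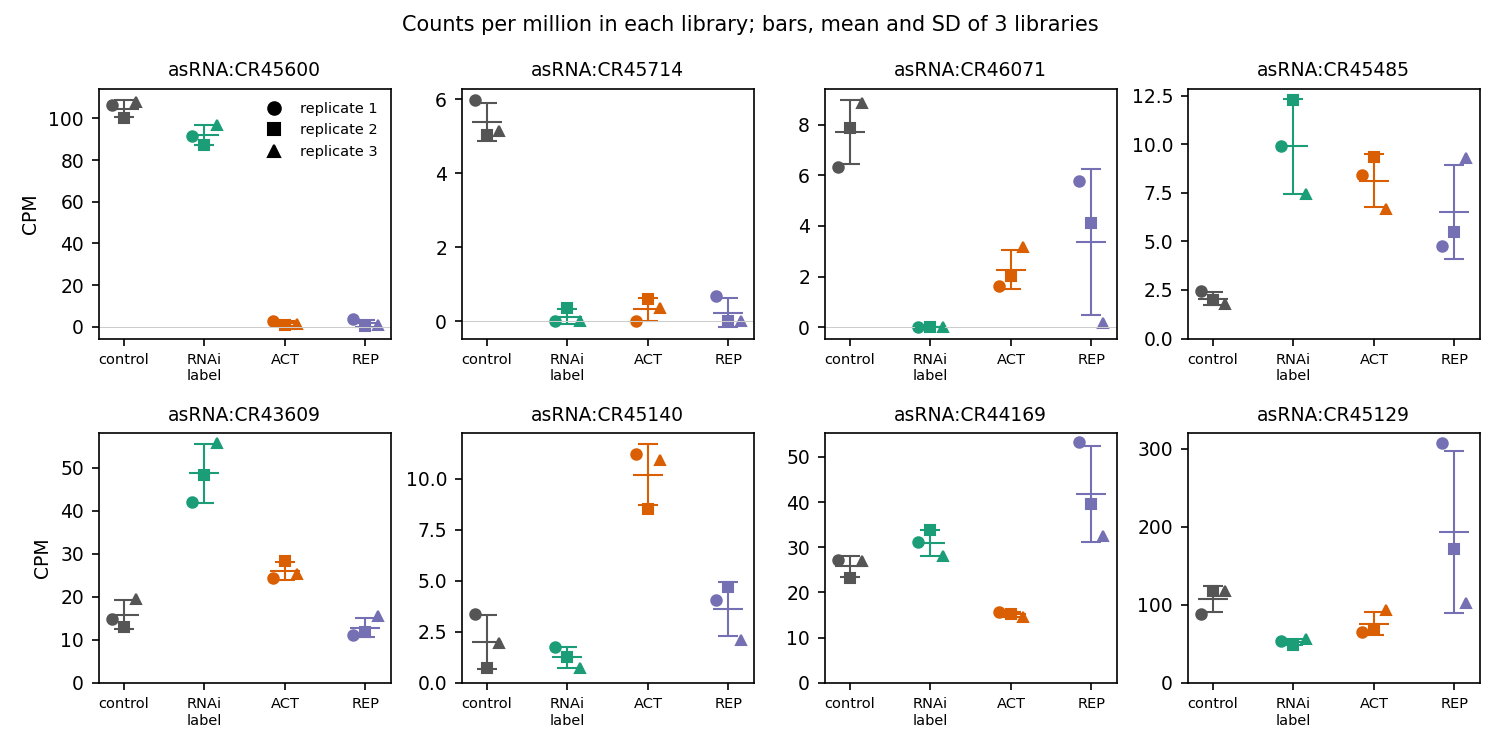
Level of 8 antisense RNAs in CPM (linear axis) in each library, with symbols for the 3 replicates and bars for the group mean and SD. asRNA:CR45600 drops from at least 100.2 CPM in control to at most 3.73 CPM in SvbACT and SvbREP, asRNA:CR45714 is high in control alone, and in the last panels SvbREP replicate 1 stands above the other 2 SvbREP libraries.

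In SvbACT, 3 antisense RNAs were higher than control and 5 lower. The 8 calls are 3.94% of those tested, against 9.15% of all genes, of which 3.92% were higher and 5.23% lower. The median log2 fold change was 0.02, against 0.01 over all genes. The count was 4 without control replicate 1, SvbACT replicate 1 or SvbACT replicate 3, and 5 without control replicate 3. Of all genes, 6.89%, 5.61%, 6.88% and 5.71% were called in those fits, in the same order.

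Among the called antisense RNAs above 10 CPM in control, the largest change was the loss of asRNA:CR45600 (FBgn0267160, chromosome 3R, 15136985 to 15140121, minus strand) in SvbACT and SvbREP. It had 569, 559 and 669 counts in control and 416, 488 and 546 in the RNAi-labelled libraries. In SvbACT it had 13, 5 and 7 counts, and in SvbREP 11, 1 and 6. The 6 libraries with a Svb transgene were all below every other library, and the group means were 104.6 ± 3.95 CPM in control, 91.9 ± 4.79 in the RNAi-labelled libraries, 1.76 ± 1.11 in SvbACT and 1.69 ± 1.82 in SvbREP (SD, n = 3). The log2 fold change was -5.93 in SvbACT (SE 0.373, adjusted p = 7.27e-08 by edgeR) and -6.10 in SvbREP (SE 0.392, adjusted p = 1.48e-07 by edgeR), called in all 12 fits without 1 library in both.

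The neighbours of asRNA:CR45600 did not all follow it. CG3984, which lies on the plus strand inside its span, had 94, 87 and 77 counts in control, 95, 68 and 57 in the RNAi-labelled libraries, 0, 1 and 1 in SvbACT, and 7, 1 and 4 in SvbREP. Its control level was 112.2 times that in SvbACT (95% counting interval 30.7 to 931.2, adjusted p = 1.52e-05 by edgeR), and in SvbREP it fell by 3.86 (SE 0.548, adjusted p = 0.000558). CG3987, head to head with the antisense RNA over 164 bases, had 53, 69 and 90 counts in control, 8, 15 and 9 in SvbACT, and 138, 135 and 144 in SvbREP. It fell by 2.5 in SvbACT (SE 0.423, adjusted p = 0.00109 by edgeR) and rose by 1.56 in SvbREP (SE 0.357, adjusted p = 0.0207), a call that held in 8 of 12 fits without 1 library. Between SvbACT and SvbREP, CG3987 differed by -4.05 (SE 0.425, adjusted p = 7.14e-06 by edgeR), while asRNA:CR45600 was at the same low level in both. CG6912, on the same strand and overlapping it by 20 bases, had 821, 623 and 831 counts in control, 0, 8 and 22 in SvbACT and 4, 19 and 9 in SvbREP, changes of -6.06 and -5.64 (edgeR adjusted p = 5.33e-07 and 2.89e-06).

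A pair of antisense RNAs on chromosome X differed from control in all 3 other groups, and for both the gene on the other strand was not among the genes of the table. asRNA:CR45714 (FBgn0267278, chromosome X, 18480072 to 18481132, plus strand), opposite Hayan, the gene of a serine protease in the melanization cascade, had 32, 28 and 32 counts in control. It had 0, 2 and 0 counts in the RNAi-labelled libraries, 0, 3 and 2 in SvbACT, and 2, 0 and 0 in SvbREP, so all 9 libraries lay below the 3 controls. The control level was 42.3 times that of the RNAi-labelled libraries (95% counting interval 11.4 to 354.4, adjusted p = 0.00332 by edgeR) and 33.0 times that of SvbREP (interval 8.87 to 276.3, adjusted p = 0.0266). In SvbACT the log2 fold change was -3.93 (SE 0.994, adjusted p = 0.0199 by edgeR). The first call held in all 12 fits without 1 library. The SvbACT call was lost without control replicate 1 (-3.85) or 3 (-3.96), or without SvbACT replicate 1 (-3.43) or 3 (-3.97), and the SvbREP call without control replicate 1 (-4.67) or 3 (-4.77) or SvbREP replicate 2 (-4.25) or 3 (-4.0).

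asRNA:CR45485 (FBgn0267041, chromosome X, 16307032 to 16308687, plus strand), opposite Had1, moved the other way. It had 13, 11 and 11 counts in control, 45, 69 and 42 in the RNAi-labelled libraries, 36, 46 and 38 in SvbACT, and 14, 20 and 53 in SvbREP. In CPM, which corrects for the shallower SvbREP libraries, the 9 libraries lay between 4.75 and 12.3, above the control range of 1.77 to 2.43. The log2 fold changes were 2.26 (SE 0.385, adjusted p = 0.000466 by edgeR), 1.97 (SE 0.387, adjusted p = 0.00349) and 1.68 (SE 0.391, adjusted p = 0.0234) for the RNAi-labelled group, SvbACT and SvbREP. The first and second of these calls held in all 12 fits without 1 library, and the SvbREP call was lost without control replicate 2 (1.66) or 3 (1.59) or SvbREP replicate 3 (1.32). It overlaps CG3679 on its own strand by 346 bases. Since control alone had a Canton-S parent, a difference of control from every other group cannot be told apart from one of strain.

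The remaining calls in SvbACT were smaller or rested on few counts. asRNA:CR45140 (chromosome 2R, 12867609 to 12869783, plus strand), head to head with CG17574, had 18, 4 and 12 counts in control and 48, 42 and 62 in SvbACT, all 3 above control. The log2 fold change was 2.34 (SE 0.541, adjusted p = 0.0115 by edgeR), not called without control replicate 3 (2.31, adjusted p = 0.0557), while CG17574 stood at -0.42 (adjusted p = 0.259). asRNA:CR45350 had 15.3, 12.7 and 13.8 CPM in control and 5.85, 6.49 and 5.95 in SvbACT. It fell by 1.19 (SE 0.293, adjusted p = 0.0167 by edgeR), a call lost without control replicate 1 (-1.12), SvbACT replicate 1 (-1.16) or SvbACT replicate 3 (-1.17).

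asRNA:CR45281 (chromosome 2R, 9559255 to 9565190, minus strand), a single exon of 5936 bases that encloses Or45b and Alp6, had 36.6, 32.1 and 45.0 CPM in control and 21.5, 18.0 and 20.8 in SvbACT. It fell by 0.91 (SE 0.21, adjusted p = 0.011 by edgeR, lost without control replicate 3 at -0.77), and neither enclosed gene was called. asRNA:CR44169 (chromosome 2R, 6873149 to 6880088, plus strand), which encloses the serpin gene Spn42Da and meets CG9447 head to head, had 27.2, 23.1 and 27.0 CPM in control and 15.7, 15.2 and 14.5 in SvbACT. It fell by 0.77 (SE 0.199, adjusted p = 0.0225 by edgeR), lost without control replicate 1 or 3 (-0.73 in both) or any 1 SvbACT library (-0.79, -0.78 and -0.74), and Spn42Da fell by 0.92 (adjusted p = 0.00115).

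In SvbREP, 4 antisense RNAs were called, 2 higher and 2 lower, which is 1.97% of those tested against 4.05% of all genes (1.35% higher and 2.7% lower). At an unadjusted p under 0.05 there were 46, or 22.7%, against 17.9% of all genes. Beside asRNA:CR45600, asRNA:CR45714 and asRNA:CR45485, the fourth was asRNA:CR45130 (FBgn0266623, chromosome 2R, 7578665 to 7579929, minus strand), inside Vps13, a gene for a lipid transport protein. It had 7.28, 11.5 and 16.6 CPM in control and 48.9, 32.4 and 15.9 in SvbREP. SvbREP replicates 1 and 2 stood above every control and replicate 3 within the control range. The log2 fold change of 1.44 (SE 0.364, adjusted p = 0.0372 by edgeR) was 0.47 (adjusted p = 0.811) without replicates 1 and 2. It was also lost without control replicate 1 (1.19) or 2 (1.42), SvbACT replicate 1 (1.44) or SvbREP replicate 1 (1.02) or 2 (1.43), and Vps13 was at 0.19 (adjusted p = 0.339).

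Few single RNAs passed the test in SvbREP, yet the class as a whole stood higher. The median log2 fold change was 0.69 over the 203 antisense RNAs tested and 0.00 over all genes tested, and 171 of the 203 (84.2%) were above 0 against 49.7% of all genes. The quartiles were 0.26 and 1.06. The partner genes had a median of -0.01 over 230 tested, and the 109 genes tested whose symbol starts with lncRNA had 0.12. In the RNAi-labelled libraries and in SvbACT the antisense medians were -0.08 and 0.02. The authors' deposited table gives a median of 0.68 for the same antisense RNAs in SvbREP.

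The shift came from 2 of the 3 SvbREP libraries. Antisense RNAs took 0.369% of the counts in SvbREP replicate 1, 0.231% in replicate 2 and 0.148% in replicate 3. The controls had 0.143%, 0.175% and 0.163%, the RNAi-labelled libraries 0.191%, 0.160% and 0.167%, and SvbACT 0.159%, 0.148% and 0.143%. SvbREP replicates 1 and 2 were thus the highest of the 12 libraries and replicate 3 fell inside the control range. Per 1000 counts of their partner genes, antisense RNAs had 97.7, 57.2 and 37.6 counts in SvbREP, 38.0, 43.0 and 43.5 in control, 54.9, 43.0 and 47.4 in the RNAi-labelled libraries, and 38.9 to 44.5 in SvbACT. On this measure RNAi-labelled replicate 1 was close to SvbREP replicate 2. The share of genes named lncRNA did not go with it, at 1.11%, 1.22% and 1.31% in SvbREP and 1.12% to 1.29% in control.

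**Figure D3:**
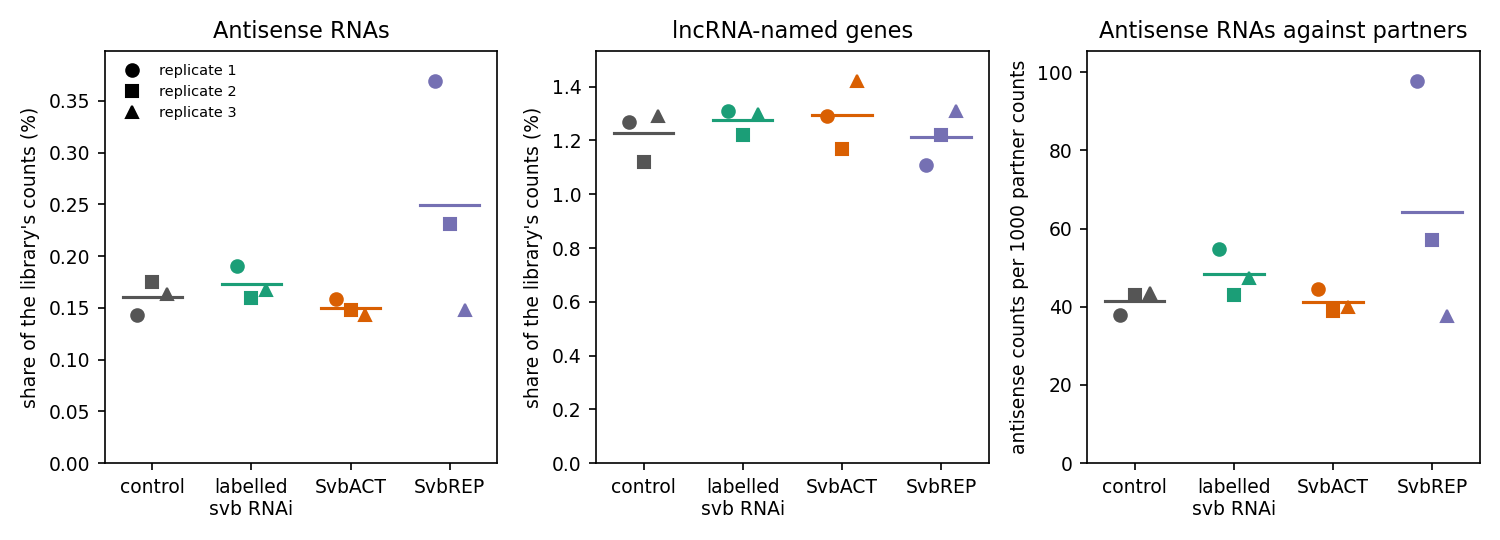
Left, percentage of each library's counts held by the 241 antisense RNAs. Middle, the same for genes named lncRNA. Right, antisense counts per 1000 counts of partner genes. Lines are means of 3 libraries. SvbREP replicates 1 and 2 stand above the rest on the left (0.369% and 0.231%) and on the right (97.7 and 57.2), and not in the middle.

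The same split appeared RNA by RNA. In SvbREP replicate 1, 156 of the 203 antisense RNAs tested (76.8%) were above every control library, where 31.8% of all genes tested were. In replicate 2 there were 109 (53.7%, against 30.9% of all genes), and in replicate 3 there were 43 (21.2%, against 25.3%). The number below every control library was 22, 29 and 57 in the same order, which is 10.8%, 14.3% and 28.1% against 31.8%, 32.1% and 27.0% of all genes. In the RNAi-labelled libraries 36.5%, 23.2% and 24.6% of the antisense RNAs were above every control, against 33.3%, 31.7% and 31.1% of all genes, and in SvbACT 33.5%, 26.6% and 24.1%, against 29.5%, 30.9% and 28.4%. Those below every control were 24.1%, 36.9% and 37.4% in the RNAi-labelled libraries, against 31.7%, 32.4% and 32.7%, and 25.6%, 26.1% and 28.1% in SvbACT, against 28.8%, 29.5% and 28.2%. None of these 6 libraries was as far from all genes as SvbREP replicates 1 and 2.

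**Figure D4:**
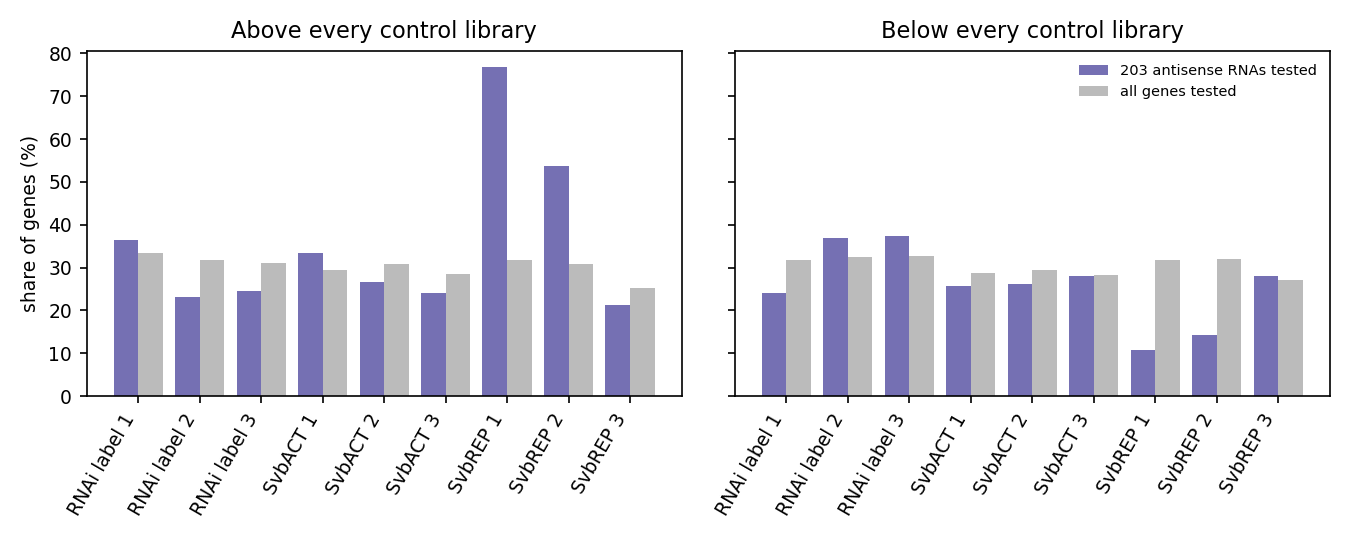
Share of genes above (left) or below (right) all 3 control libraries in CPM, in each of the 9 other libraries, for the 203 antisense RNAs tested and for all 7992 genes tested. SvbREP replicates 1 and 2 have 76.8% and 53.7% of antisense RNAs above control, and SvbREP replicate 3 has 21.2%.

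Without SvbREP replicates 1 and 2 the antisense median against control was 0.00. It was 0.30 without replicate 1 alone, 0.67 without replicate 2 and 0.92 without replicate 3. Without replicate 3, 28 antisense RNAs were called in SvbREP, 25 of them higher, against 5.63% of all genes called in that fit. The number was 2 without control replicate 3 or without SvbREP replicate 2, beside 2.11% and 2.23% of all genes. The 2 libraries that stand apart are also the shallowest of the series. The same 2 libraries had the highest sums of the enteroendocrine markers, 1081.5 and 1421.8 CPM, against 243.0 in SvbREP replicate 3 and at most 669.8 in the other 9. The part that depth or cell composition had in the shift was not tested. Whether every library kept the strand equally well is not given in the sources used here.

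The shift was seen at every degree of exon cover. The median log2 fold change in SvbREP was 0.51 for the 42 tested antisense RNAs with under 50% cover, 0.64 for the 49 between 50% and 75%, 0.78 for the 98 between 75% and 100% and 0.55 for the 14 covered in full. Antisense RNAs with at least 75% cover summed to 2425.0, 1461.7 and 940.9 CPM in SvbREP and to 851.9, 1063.9 and 969.4 CPM in control. Those with less cover summed to 1291.3, 813.9 and 553.3 CPM in SvbREP and to 631.0, 695.4 and 752.9 CPM in control. In both sums SvbREP replicates 1 and 2 were above every control. In SvbREP replicate 3 the sum of the more covered RNAs lay inside the control range and that of the less covered ones below it. The sum of the less covered ones includes asRNA:CR45600 (63.0% cover), whose loss in SvbREP is described above. The partner genes held 3.69%, 3.92% and 3.79% of the counts in SvbREP and 3.61% to 3.93% in control, which overlap.

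Comparing the Svb forms directly, 3 antisense RNAs were higher in SvbACT than in SvbREP and 12 lower. The 15 calls are 7.39% of those tested, against 13.1% of all genes, of which 6.51% were higher and 6.63% lower. The median was -0.65, against 0.00 over all genes and -0.23 over the 109 genes tested whose symbol starts with lncRNA. The antisense median was 0.01 without SvbREP replicates 1 and 2. That fit holds 1 SvbREP library, so its number of calls is not compared with the 15. The count of calls was 9 without SvbREP replicate 1, 9 without replicate 2 and 36 without replicate 3. Of all genes, 9.18% were called without replicate 1 and 9.13% without replicate 2. Without replicate 3 the share of all genes was above the 13.1% of the fit with every library.

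asRNA:CR44169 had 15.7, 15.2 and 14.5 CPM in SvbACT and 53.3, 39.6 and 32.4 in SvbREP, and all 3 SvbREP libraries were above SvbACT. The difference was -1.46 (SE 0.2, adjusted p = 0.000118 by edgeR), and -1.14 (adjusted p = 0.00867) with SvbREP replicate 3 as the only library of its group. It was the single one of the 10 named in this comparison to remain called there. Its enclosed gene Spn42Da differed by -0.71 (adjusted p = 0.0069). asRNA:CR45350 had 5.85, 6.49 and 5.95 CPM in SvbACT and 21.0, 17.3 and 14.4 in SvbREP, a difference of -1.52 (SE 0.296, adjusted p = 0.00258 by edgeR), and -1.27 (adjusted p = 0.0923) without SvbREP replicates 1 and 2. asRNA:CR44368 (chromosome 2R, 14168844 to 14170917, minus strand), tail to tail with CG18324 and head to head with ReepB, had 5.38, 4.66 and 5.08 CPM in SvbACT and 13.9, 13.2 and 14.2 in SvbREP. The SvbREP libraries were close to each other here, and the difference of -1.45 (SE 0.356, adjusted p = 0.0131 by edgeR) was -1.53 without SvbREP replicates 1 and 2 (adjusted p = 0.10), with neither partner called.

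For other RNAs the difference followed the SvbREP libraries that stand apart. asRNA:CR45129 had 65.2, 69.3 and 93.2 CPM in SvbACT and 307.2, 171.6 and 102.1 in SvbREP. The difference of -1.34 (SE 0.284, adjusted p = 0.00476 by edgeR) was -0.46 (adjusted p = 0.339) without SvbREP replicates 1 and 2. asRNA:CR44897 had 56.1, 50.3 and 59.4 CPM in SvbACT and 269.5, 130.3 and 73.2 in SvbREP, a difference of -1.50 (SE 0.344, adjusted p = 0.00835 by edgeR) that was -0.44 (adjusted p = 0.501) without them. In both RNAs SvbREP replicate 3 was the lowest of its group and still above every SvbACT library. Dscam1 and robo2 differed by -0.49 and -0.42 (adjusted p = 0.0152 and 0.00925), lower in SvbACT like the RNAs inside them. asRNA:CR45926 (-1.0, adjusted p = 0.00874) was at -0.38 (adjusted p = 0.326) without SvbREP replicates 1 and 2.

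asRNA:CR31514 (chromosome 3R, 9779519 to 9782693, minus strand) had 4, 4 and 6 counts in SvbACT and 44, 17 and 28 in SvbREP. It meets the ribosomal protein gene RpS29 tail to tail and CG12947 head to head, and neither was called. The difference was -3.07 (SE 0.728, adjusted p = 0.0104 by edgeR), and it was not called without SvbREP replicate 1 (-2.34, adjusted p = 0.0718). asRNA:CR43730 (chromosome 2R, 16288927 to 16291474, minus strand), which encloses JhI-26, a gene known to respond to juvenile hormone, differed by -1.26 (adjusted p = 0.0393 by edgeR) beside -1.10 for JhI-26 (adjusted p = 0.0305). asRNA:CR44107 differed by -1.35 (adjusted p = 0.0386 by edgeR) beside -0.33 for CG5835 (adjusted p = 0.29). asRNA:CR46109 (chromosome 3R, 29745209 to 29746083, minus strand), head to head with IntS11, the nuclease subunit of the Integrator complex, had 7, 5 and 6 counts in SvbACT and 34, 17 and 10 in SvbREP (-2.23, adjusted p = 0.0469 by edgeR). These last 3 calls held in 6, 7 and 2 of the 12 fits without 1 library, and without SvbREP replicates 1 and 2 the differences were -1.10, -0.97 and -0.55, none of them called.

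Of the 3 that were higher in SvbACT than in SvbREP, asRNA:CR45133 had the largest difference, 2.10 (SE 0.636, adjusted p = 0.0398 by edgeR). Its counts of 41, 54 and 86 against 8, 10 and 16 did not overlap, yet the call held in 4 of the 12 fits without 1 library, with differences of 1.88 to 2.22. KCNQ differed by 0.64 in the same direction (adjusted p = 0.0116). asRNA:CR43609 was higher by 1.0 (SE 0.212, adjusted p = 0.00476 by edgeR, called in 12 of 12 fits), and by 0.71 (adjusted p = 0.225) without SvbREP replicates 1 and 2.

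The called antisense RNAs were then set against the genes they overlap. Both genes of 202 pairs were tested. In the RNAi-labelled libraries, 18 pairs held a called antisense RNA. The partner was called in the same direction in 9 of them, in the opposite direction in none, and not called in 9. In all 9 both genes fell. Over all tested partner genes 26.5% were called in either direction in that comparison (8.26% higher and 18.3% lower), against 20.4% of all genes. In SvbACT the partner was called in the same direction in 4 of 9 such pairs and in the opposite direction in none. Among the 4 are the pairs of asRNA:CR45600 with CG3984 and with CG3987. In either direction, 11.3% of partner genes (2.61% higher and 8.7% lower) and 9.15% of all genes were called. In SvbREP 1 of 3 pairs went the same way, that of asRNA:CR45600 and CG3984. The opposite way went 1 pair, that of asRNA:CR45600 and CG3987, so both rest on the same antisense RNA. In either direction, 6.09% of partner genes (2.17% higher and 3.91% lower) and 4.05% of all genes were called. Between SvbACT and SvbREP 7 of 19 pairs went the same way and none the opposite way. In either direction, 14.3% of partner genes (6.09% higher and 8.26% lower) and 13.1% of all genes were called.

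Across the 202 pairs, the log2 fold change of the antisense RNA and that of its partner had a Pearson r of 0.67 (Spearman rho 0.62) in the RNAi-labelled libraries, 0.66 (0.45) in SvbACT, 0.34 (0.24) in SvbREP and 0.11 (0.20) between SvbACT and SvbREP. These are descriptions over pairs that share libraries and, where exons overlap, possibly reads, and some pairs share a gene. The sign was the same in 69.3%, 63.9%, 54.0% and 55.0% of the pairs. Of the pairs with a called partner, the antisense RNA was not called in 47 of 56 in the RNAi-labelled libraries, 20 of 24 in SvbACT, 10 of 12 in SvbREP and 21 of 28 between SvbACT and SvbREP. Of all antisense RNAs tested, 9.36%, 3.94%, 1.97% and 7.39% were called in the same order.

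**Figure D5:**
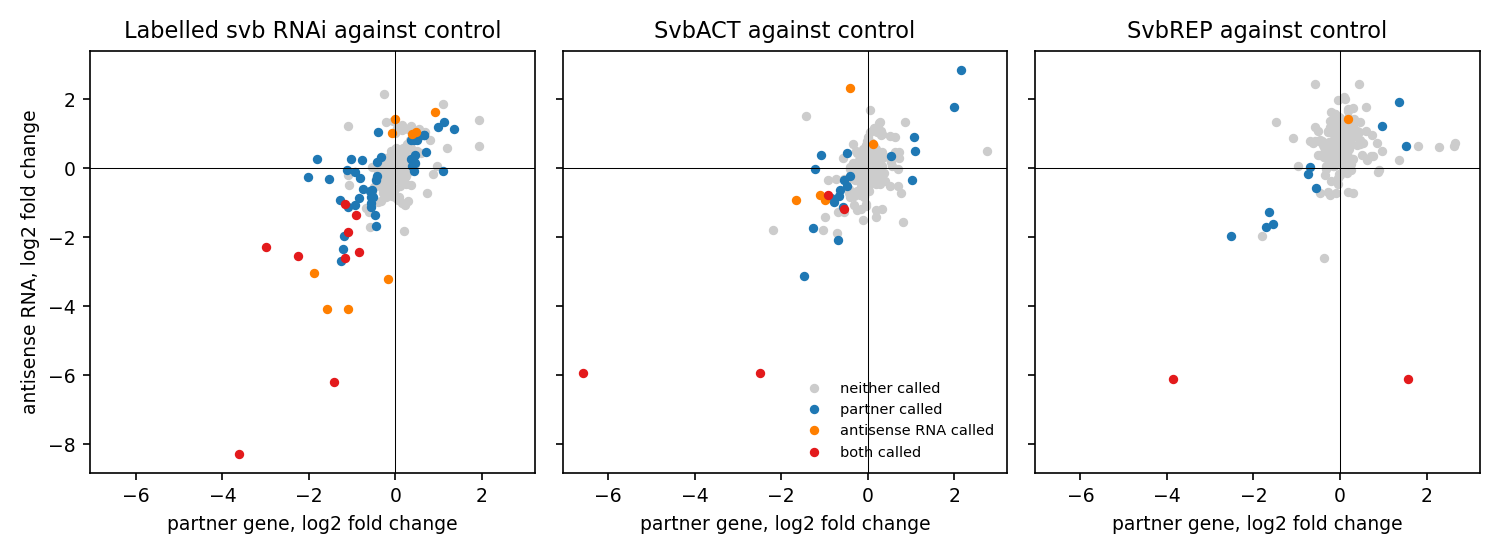
Log2 fold change of the antisense RNA (vertical) against that of its partner gene (horizontal) for 202 pairs in each comparison with control, coloured by which gene was called. In the RNAi-labelled libraries and in SvbACT no pair called for both genes lies in a quadrant of opposite signs, and in SvbREP most antisense RNAs lie above 0 and 1 pair called for both genes has opposite signs.

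The authors' deposited table calls more antisense RNAs than the test used here. Of the 241, it calls 24 in the RNAi-labelled libraries, 10 in SvbACT, 16 in SvbREP and 26 between SvbACT and SvbREP. Of all genes it calls 18.9%, 9.51%, 6.03% and 13.3% in the same order. The calls made here were among them in 19 of 19, 7 of 8, 4 of 4 and 15 of 15 cases. In the authors' deposited table, higher levels made up 12 of the 16 calls in SvbREP, and log2 fold changes of the tested antisense RNAs differed from those given here by at most 0.0607.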

How the data were processed

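The authors deposited whole-number counts per gene, not normalized, for 8802 genes in 12 libraries. The same deposited table holds the authors' log2 fold changes, their unadjusted p-values and a call that the authors code as a score. The submitters' processing notes name FastQC 0.11.5, STAR 2.5.2b, HTSeq 0.6.0, edgeR and the build dm6. The strand setting, the use of molecular identifiers and the annotation release of the counting are not given in the sources used here. Per the labels' protocols, the kit was Ovation SoLo, with single reads of 100 nt. Unless such identifiers were used, copies of a molecule made by PCR count as separate reads. Floors and counting intervals cover counting error only.

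Antisense RNAs are the rows whose symbol begins with asRNA. For 1 more gene the table gives the symbol lncRNA:CR44811 where the annotation has asRNA:bsAS, and it was not included. Positions, exons and partners (genes of the table on the other strand whose spans overlap) come from the Ensembl release 115 annotation of BDGP6.54, in 1-based coordinates.

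Testing used edgeR 4.0.16 in R 4.3.3, with its quasi-likelihood method, TMM factors and a mean for each of the 4 groups. filterByExpr (minimum count 10, total 15, proportion 0.7) kept 7992 genes. P-values were adjusted over all of these by the Benjamini-Hochberg method, and an adjusted p-value under 0.05 made a call. The same steps were run on counts simulated with a single dispersion for all genes. Only genes above a minimum count were changed there, so the run does not cover changes in antisense RNAs of few counts. CPM values use the TMM factors, RPKM values are CPM per kilobase of annotated exon, and SDs are over 3 libraries. Where a group held 1 to 3 counts, the ratio and its exact 95% interval came from the summed counts. The standard error was derived from the log2 fold change and its F statistic.

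Alternatives were RLE size factors, no filter, DESeq2 1.42.0, a replicate block, a fit of only the groups compared and leaving out each library. Leaving out SvbREP replicates 1 and 2 together was added after seeing the data. It leaves 1 SvbREP library, which is assumed to vary like the other groups. Within each group, all pairs of libraries were further apart than counting noise allows (chi-square per degree of freedom at least 7.89), so each was kept as a replicate.

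Replicate numbers come from the sample titles. Deviations from group means of libraries with the same number correlated across genes at 0.113, 0.248 and 0.189 between SvbACT and control and at 0.103, 0.126 and 0.199 between SvbACT and SvbREP. Whether libraries with the same number form a pair is not given in the labels. The calls given above come from the fit without pairing, and the replicate block is an alternative. Named are up to 10 called antisense RNAs of largest change per comparison, the 6 highest in CPM and in RPKM, and their partners. The partner of asRNA:CR45350 is not reported here. The members and lists were chosen with earlier results of these data known.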

Additional observations from a re-analysis of the deposited data

How the results depend on the processing

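No called log2 fold change of a named antisense RNA changed sign under the alternatives run. Of the medians, SvbACT against SvbREP went from -0.65 to 0.01 without SvbREP replicates 1 and 2, and SvbACT against control from 0.02 to -0.02 without control replicate 1 and -0.04 without SvbACT replicate 1. Leaving out 1 library at a time, the number of antisense RNAs called ranged from 11 to 25 in the libraries labelled svb RNAi, from 4 to 10 in SvbACT, from 2 to 28 in SvbREP, from 9 to 36 between SvbACT and SvbREP and from 30 to 64 over the 4 groups. The share of all genes called moved in these fits too. It ran from 14.3% to 20.7% in the libraries labelled svb RNAi, from 5.61% to 9.41% in SvbACT and from 2.11% to 5.63% in SvbREP. Between SvbACT and SvbREP its lowest value was 8.56%, against 13.1% with every library. DESeq2 called 18 in SvbREP (16 higher), with 31 left without an adjusted p, and 28 between SvbACT and SvbREP. Of all genes, DESeq2 called 6.82% in SvbREP (2.94% higher) and 15.8% between SvbACT and SvbREP. The causes of these differences were not tested. RLE factors, no filter and a fit of only the groups compared kept every total of calls within 1.5 times. The last gave other splits, 10 higher and 9 lower in the RNAi-labelled group (6 and 13 in the fit of all 4 groups) and 1 and 3 in SvbREP (2 and 2). RLE moved the median of all genes by at most 0.0156 in size.

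With the replicate number as a block, 8 antisense RNAs were called in SvbACT and 17 between SvbACT and SvbREP, which include all 8 and all 15 of the calls without it. Of all genes, 13.1% and 17.6% were called with the block in these comparisons. In the other comparisons, libraries of the same number correlated at 0.0674, 0.195 and 0.17 between the libraries labelled svb RNAi and control. Between SvbREP and control the values were -0.0809, 0.246 and 0.117. The block gave 26 calls in the libraries labelled svb RNAi, among them 18 of the 19, and 12 in SvbREP. Of all genes, 25.6% and 8.3% were called with it there. Of the log2 fold changes of named antisense RNAs, 1916 values kept their side of the threshold, 115 called without the change of setting were no longer called and 38 became called. The median antisense RNA had 13.2 counts per library.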
